A study of Bos taurus with 42 samples.

Results

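Cultured ear fibroblasts and mature oocytes of cattle were compared across every small RNA listed in the deposited table, by RNA class. The comparison used 3 fibroblast libraries and 3 oocyte libraries out of 42 libraries in the series, chosen by their labels and without regard to any value. The fibroblasts were primary cultures grown from ear biopsies of a Brahma Spanish bull cross. The oocytes were pooled eggs at metaphase II (MII), matured in TCM199 medium with fetal bovine serum, follicle stimulating hormone and luteinizing hormone. Neither group carried a treatment beyond its culture. All fibroblasts came from a single bull, so the spread between their libraries holds no differences between animals. The labels do not say whether the 3 fibroblast libraries came from separate cultures, so the p-values below measure only the spread between these libraries, which may be partly technical. The small RNA fraction (under 200 nt) went into Ion Proton libraries. The table lists 12345 entries, each an annotation or a set of up to 3 annotations given to the same reads.

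MicroRNAs (miRNAs), PIWI-interacting RNAs (piRNAs) and tRNA fragments fill most of such libraries. miRNAs are cut from hairpin transcripts and guide Argonaute proteins to messenger RNAs, and they are abundant in most somatic cells. piRNAs come from long transcripts of genomic clusters, guide PIWI proteins and silence transposons, and they are largely a germline class. Fragments of tRNAs come from the ends of the mature tRNA or from the leader and trailer that are trimmed off its precursor. Bovine oocytes are known to hold abundant piRNAs together with PIWIL3, a PIWI protein that mice lack.

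The libraries held 696686, 1068294 and 2880540 listed reads in fibroblast replicates 1, 3 and 4, and 408953, 506363 and 499197 in oocyte replicates 1, 3 and 4. Each library was divided by the authors' size factor, and the quotients are called normalised reads here. They summed to 405808, 289834 and 214623 in fibroblasts and to 2058418, 2481348 and 1755144 in oocytes. A single read counted for 0.582, 0.271 and 0.075 normalised reads in fibroblasts and for 5.03, 4.90 and 3.52 in oocytes, so lower levels were visible in fibroblasts. Entries found numbered 648, 1100 and 1236 in fibroblasts, against 5676, 6101 and 6056 in oocytes. Every listed entry was found in replicate 4 of the cloned 2-cell embryos, so small RNAs absent from that library are in no count below. In total 8989 entries had a read in at least 1 of the 6 libraries and 3356 in none.

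Over all tested entries the pairs of oocyte libraries correlated at 0.864 to 0.879 (Pearson's r of log2 values), and fibroblast pairs at 0.886 for replicates 3 and 4, 0.862 for replicates 1 and 4 and 0.752 for replicates 1 and 3. No fibroblast library had a read for 3202 of the tested entries. These count as agreement between fibroblast libraries, so the fibroblast and oocyte values of r are not comparable here. Among miRNAs the fibroblast pairs were further apart than the oocyte pairs. Over the 258 miRNA entries that passed the filter described below, r was 0.843 to 0.857 for the 3 pairs of oocyte libraries. For fibroblasts it was 0.785 between replicates 1 and 4, 0.656 between replicates 3 and 4 and 0.607 between replicates 1 and 3. Fibroblast replicate 3 correlated with the oocyte libraries at 0.397 to 0.517, replicate 4 at 0.236 to 0.366 and replicate 1 at 0.048 to 0.162. These correlations run over entries, which are not independent, and the pairs share their scaling. No library was a copy of another. In fibroblast replicate 3, 17 miRNA entries with at least 100 reads stood at 20 times or more the higher of the other fibroblast libraries, and they made up 22.9% of its miRNA signal. All 3 oocyte libraries held 14 of these 17. Results that rest on this library are given with and without it.

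Marker miRNAs were looked up in each library. The fibroblast markers were 11 miRNAs (miR-21, miR-22, miR-100, miR-125b, miR-143, miR-145, miR-199a, miR-199b, miR-214, miR-221 and miR-222) chosen from a broader list of 24 fibroblast and mesenchymal miRNAs, which also holds miR-10b, miR-31 and miR-152. The 11 all had an entry, and together they gave 35.3%, 28.5% and 27.8% of the miRNA signal in fibroblasts, against 15.0%, 7.28% and 12.1% in oocytes. The broader list gave 44.0%, 43.9% and 46.0% in fibroblasts, against 23.0%, 13.5% and 19.8% in oocytes. Of 5 miRNAs taken as markers of cumulus and granulosa cells, the somatic cells around the oocyte, miR-224 and miR-383 had no entry. The other 3 summed to 0%, 5.37% and 0.00259% of the miRNA signal in fibroblasts and to 2.90%, 0.982% and 1.74% in oocytes. The sum in fibroblast replicate 3 was above all 3 oocyte libraries and came mostly from miR-202 and its -5p entry. Of 6 blood markers, miR-144 had no entry, and the rest summed to 0%, 0.00757% and 0.0204% in fibroblasts and to 0.0903%, 0.211% and 0.336% in oocytes. The part of other cells in the results below was not tested.

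The largest RNA class differed between the cell types. In fibroblasts the tRNA-derived class was the largest, at 89.2%, 46.4% and 56.8% of normalised reads listed, against 3.43%, 3.26% and 6.32% in oocytes. miRNAs without a mismatch held 2.88%, 35.8% and 34.8% in fibroblasts, against 2.71%, 1.59% and 1.85% in oocytes. piRNA clusters held 0.488%, 0.895% and 0.300% in fibroblasts and 90.1%, 91.5% and 88.1% in oocytes. None of these classes overlapped between the groups, although the miRNA share of fibroblast replicate 1 lay just above oocyte replicate 1. In bulk libraries a share cannot tell more of a class from less of the others, nor fewer cells from less RNA per cell.

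The tRNA-derived share averaged 64.1% ± 22.3 in fibroblasts and 4.34% ± 1.72 in oocytes (SD, n = 3 each). The miRNA share averaged 24.5% ± 18.7 in fibroblasts and 2.05% ± 0.586 in oocytes, and the piRNA share 0.561% ± 0.304 in fibroblasts and 89.9% ± 1.73 in oocytes. Each difference gave an exact two-sided permutation p = 0.1, the smallest that 20 splits of 3 against 3 allow, and an adjusted p = 0.183 over 11 classes, so no share could pass 0.05 in this design. Ribosomal RNA fragments took 6.23%, 4.24% and 2.76% in fibroblasts, against 0.956%, 1.05% and 0.705% in oocytes, also without overlap. Fragments of protein-coding transcripts took 0.160%, 0.231% and 0.150% in fibroblasts and 0.752%, 0.635% and 0.778% in oocytes.

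**Figure D1:**
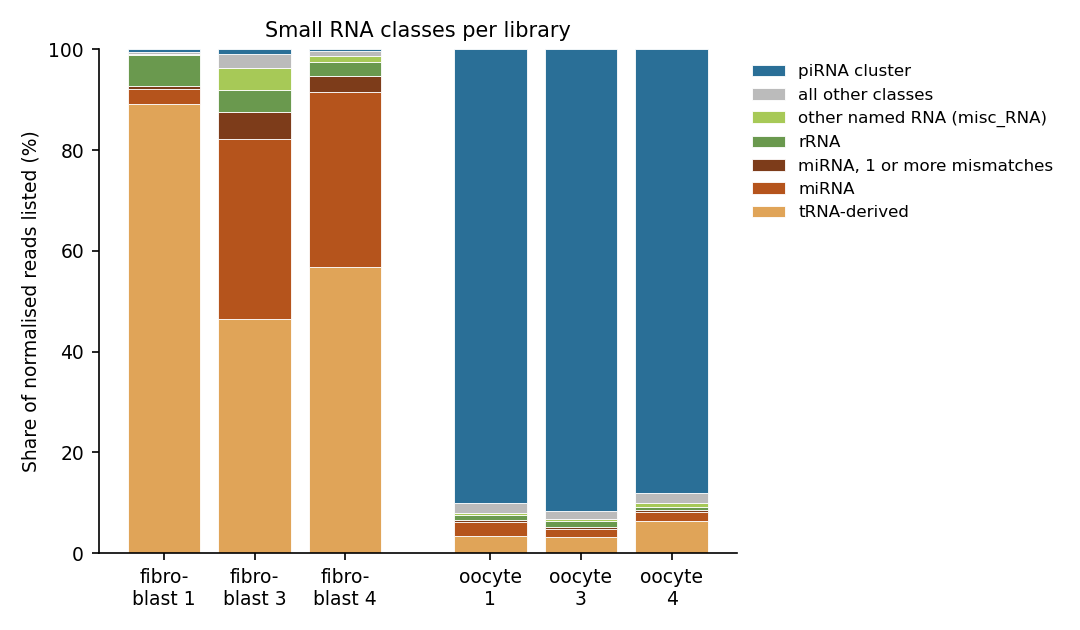
Share of normalised reads listed (y axis, percent) by RNA class in each of the 6 libraries, fibroblasts left and oocytes right. The piRNA clusters fill 88.1% to 91.5% of each oocyte library and under 1% of each fibroblast library, where tRNA-derived reads fill 46.4% to 89.2%.

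The ratio of tRNA-derived to miRNA signal did not separate the cell types. It was 31.0, 1.29 and 1.63 in fibroblasts and 1.27, 2.05 and 3.42 in oocytes, and the groups overlapped (exact permutation p = 0.8, adjusted p = 0.8 over 5 ratios). With the piRNA and tRNA-derived classes set aside, miRNAs made up 27.9%, 68.0% and 81.1% of what was left in fibroblasts and 41.8%, 30.6% and 33.1% in oocytes, which overlapped too. Ribosomal RNA was the largest remaining class in fibroblast replicate 1, at 60.4%, against 8.04% and 6.44% in replicates 3 and 4.

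Single entries were tested with limma on the deposited log2 values of these 6 libraries. The filter asked for about 1.29 normalised reads, a log2 value 1 above that of no read, in 3 or more libraries. This left 4028 entries, of which 143 were higher in fibroblasts (3.55%) and 3421 lower (84.9%) at a Benjamini-Hochberg adjusted p under 0.05. Most of these calls were fixed by the filter. Of the 4028 entries, 3293 reached the filter only in oocytes and all of those were called lower, and 68 reached it only in fibroblasts and all of those were called higher. For such entries the call says no more than the filter, so their values and changes are given below without p. Another 667 entries were at the filter in both groups, meaning in at least 1 library of each. Some of them reached it in only 1 library of a group, such as miR-10b-5p in fibroblasts and miR-184 in oocytes. Their calls lean on the filter too, and their p-values below carry this limit. Among the 667 entries, 75 were higher (11.2%) and 128 lower (19.2%), with a median change of -0.33. The deposited scale sets the zero of these changes, and the median change of all entries was -3.78. It was -4.38 when each class was scaled to its own total, -5.26 when all listed reads were used (limma's voom) and 0.29 when libraries were centred on their medians. The last scaling treats the piRNAs, 2882 of the 4028 entries, as the unchanged background.

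**Figure D2:**
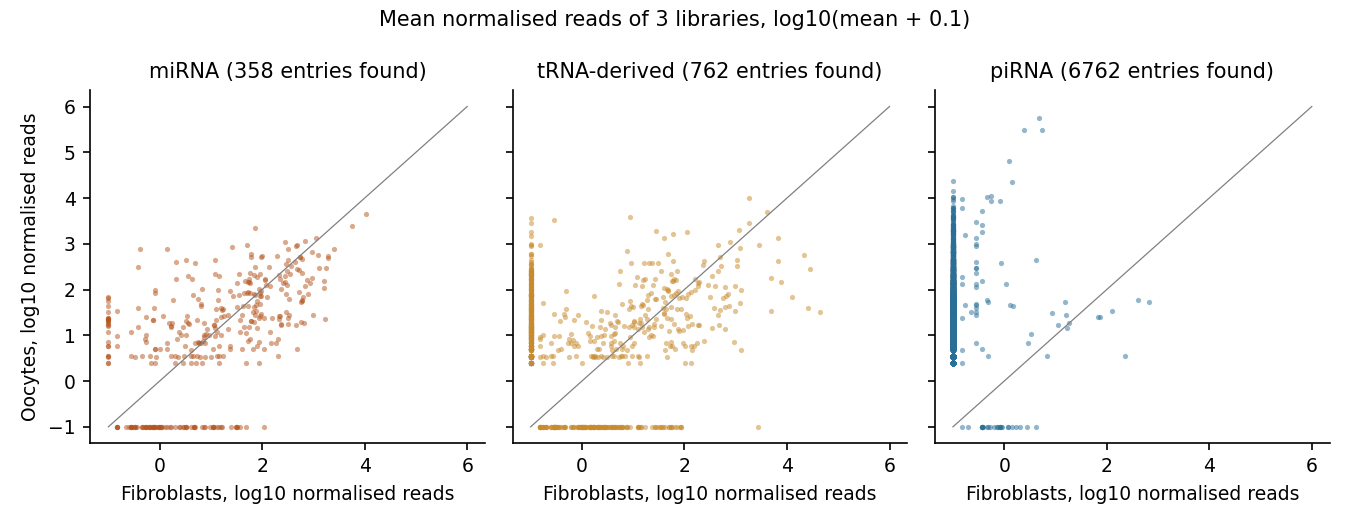
Mean normalised reads of each entry found in any of the 6 libraries, as log10(mean + 0.1), in fibroblasts (x axis) and oocytes (y axis), for 358 miRNA, 762 tRNA-derived and 6762 piRNA entries. The line marks equal levels, and points at -1 had no read in that group. The miRNAs spread to both sides of the line, the tRNA-derived entries form arms along both axes, and nearly all piRNA entries stand on the oocyte axis.

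The piRNA difference was carried by a few large clusters. In oocytes the cluster at chr6:110178897-110333441 (154.5 kb, cattle build UMD3.1, equal to bosTau8) gave 32.3%, 33.3% and 32.8% of piRNA signal, and in fibroblasts 0.0588%, 0.575% and 0.0231%. Its leading entry had 1.16, 13.0 and 0.149 normalised reads in fibroblasts, against 541668, 685238 and 464184 in oocytes. The change was -16.36 ± 1.36 (SE, adjusted p = 4.64e-05 by limma), and 2, 48 and 2 reads stood behind the fibroblast values. Of the fibroblast libraries only replicate 3 was at the filter, so this call leans on the oocyte libraries. The clusters at chr17:62734087-62862016, chr23:13905000-14137856 and chr14:4892124-5053723 followed. Their leading entries changed by -15.38, -15.68 and -13.69, and each had at most 13.3 normalised reads in a fibroblast library and at least 49884 in an oocyte library. These 4 clusters together held 71.7%, 73.4% and 73.6% of piRNA signal in oocytes, against 0.47%, 1.43% and 0.14% in fibroblasts.

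A mismatched entry of the cluster at chr3:90985343-91116627 was the largest with no read in any fibroblast library. It had 24457, 30897 and 16936 normalised reads in oocytes, at least 25958-fold higher than the level of 3 reads per fibroblast library. The smaller cluster at chr16:61871008-61877017 (6.0 kb) also had no fibroblast read, and gave 1.27%, 1.21% and 1.38% of piRNA signal in oocytes. In all, 4480, 4835 and 4733 piRNA entries were found per oocyte library, from 400, 419 and 435 clusters. Fibroblast libraries held 28, 68 and 42 piRNA entries, from 20, 50 and 33 clusters. Of 2882 piRNA entries tested 2867 were lower in fibroblasts (99.5%) and 2 higher (0.0694%), but 2854 had reached the filter only in oocytes. Of the 28 at the filter in both groups, 13 were lower and 2 higher.

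The few piRNA reads of the fibroblasts were spread over the clusters differently, and none of the tested piRNA entries had passed through fibroblasts alone. The cluster at chr3:80674203-80680024, only 5.8 kb long, gave 74.0%, 0.983% and 73.4% of the class in fibroblasts and 0.0057%, 0.00431% and 0.00364% in oocytes. Its entry without a mismatch had 989, 17.4 and 225 normalised reads in fibroblasts, against 65.4, 68.6 and 45.7 in oocytes, and was not called (change 1.42 ± 1.35, adjusted p = 0.353 by limma). Its mismatched entry had 447, 7.60 and 238 in fibroblasts, against 0, 0 and 10.5 in oocytes, and was called higher (4.56 ± 1.51, adjusted p = 0.0278). Fibroblast replicate 3 was low in both, and without it the changes were 2.90 (adjusted p = 0.008) and 6.15 (0.0013). In replicate 3 a mismatched entry of chr22:54938001-54946805 took 78.5% of the class instead, with 2037 normalised reads, against 0 and 1.04 in the other fibroblast libraries and 156, 0 and 7.03 in oocytes. The other entry called higher was annotated to chr1:150072006-150087016 and to 2 other clusters. It had 129, 196 and 60.7 normalised reads in fibroblasts and 65.4, 19.6 and 14.1 in oocytes, which overlapped (1.92 ± 0.65, adjusted p = 0.0291, and 0.075 without fibroblast replicate 3).

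The tRNA-derived reads differed in which part of the tRNA they came from. The table separates short 5′ fragments (5p-tRF), longer 5′ fragments that end near the anticodon (5′ tiRNA), 3′ fragments, trailers of the precursor (tRF-1) and leaders. Short 5′ fragments made up 88.5%, 21.4% and 83.3% of tRNA-derived signal in fibroblasts, against 18.1%, 16.6% and 11.3% in oocytes. 5′ tiRNAs made up 6.28%, 3.63% and 4.47% in fibroblasts and 20.0%, 9.54% and 49.6% in oocytes. Within a library there were 14.1, 5.88 and 18.6 short 5′ fragments per 5′ tiRNA in fibroblasts, against 0.905, 1.74 and 0.227 in oocytes. This ratio needs no scaling between libraries, and the groups did not overlap (exact permutation p = 0.1, the smallest possible, adjusted p = 0.125 over 5 ratios chosen after their values were seen).

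Trailers and leaders belong to the precursor before the tRNA is mature. Leaders were 0%, 0.000403% and 0% of tRNA-derived signal in fibroblasts and 4.22%, 4.96% and 2.19% in oocytes. All 12 leader entries tested were lower in fibroblasts, under the deposited scale, within the class and over all listed reads, and all 12 had reached the filter only in oocytes. With centred medians 7 were lower and 1 higher. Trailers were 0.72%, 59.9% and 3.76% in fibroblasts, against 29.8%, 38.7% and 20.4% in oocytes, which overlapped because of fibroblast replicate 3. There a single trailer, numbered 4060 in the table, reached 78312 normalised reads, 27.0% of everything listed in that library. It had 2143 and 3739 in fibroblast replicates 1 and 4, and 498, 157 and 204 in oocytes (change 5.06 ± 1.72, adjusted p = 0.0305 by limma, and 3.46 with adjusted p = 0.0041 without replicate 3). Scaled within the class its adjusted p was 0.081. Of 136 trailers tested, 130 were lower in fibroblasts and 4 higher, and the 130 had reached the filter only in oocytes. With centred medians 52 trailers were lower and 26 higher.

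**Figure D3:**
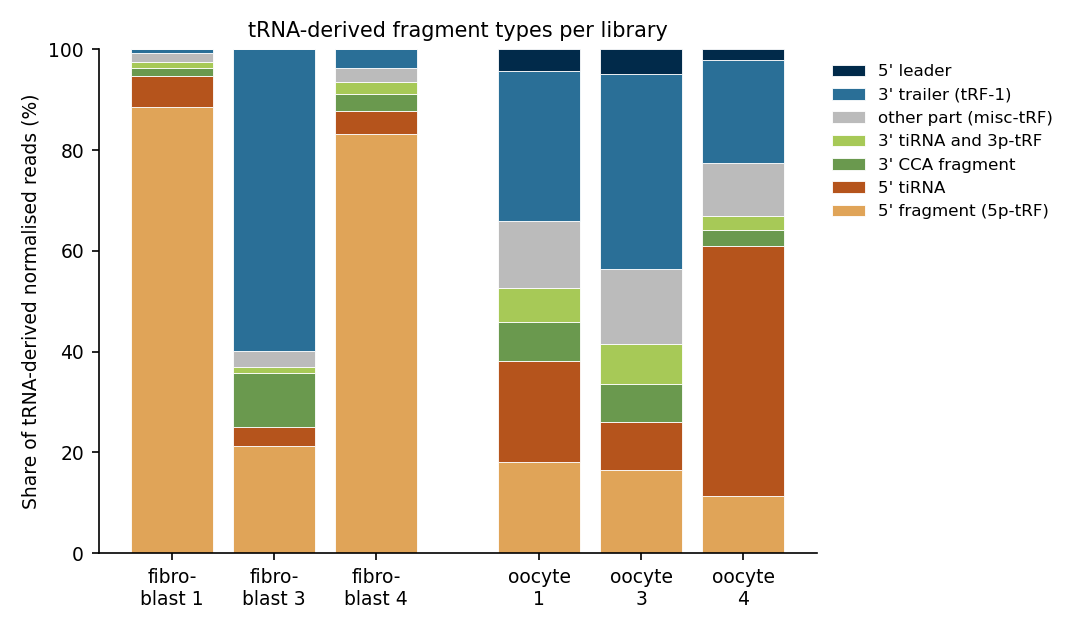
Share of tRNA-derived normalised reads (y axis, percent) by fragment type in each library, fibroblasts left and oocytes right. Short 5′ fragments fill 88.5% and 83.3% of fibroblast replicates 1 and 4 and 21.4% of replicate 3, where trailers fill 59.9%, and leaders fill 2.19% to 4.96% of the oocyte libraries.

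Serine tRNAs gave the largest rises of the class. They made up 39.2%, 12.3% and 48.1% of tRNA-derived signal in fibroblasts, against 0.221%, 0.115% and 0.162% in oocytes. The short 5′ fragment shared by tRNA-Ser(TGA) and tRNA-Ser(AGA) had 83991, 14686 and 32452 normalised reads in fibroblasts, against 15.1, 19.6 and 59.8 in oocytes, a change of 10.08 ± 1.08 (SE, adjusted p = 0.000152 by limma). It was the most abundant entry of fibroblast replicates 1 and 4. That of tRNA-Ser(GCT) had 51935, 1476 and 24191 in fibroblasts and 55.4, 19.6 and 42.2 in oocytes (8.22 ± 1.46, adjusted p = 0.00177). That of tRNA-Ser(CGA) had 5708, 326 and 1963 in fibroblasts and no read in oocytes, having reached the filter only in fibroblasts. It was at least 198-fold higher than 3 reads per oocyte library. These 3 were the only serine 5p-tRF entries tested, and all stayed higher under every scaling run.

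Other tRNAs followed the same direction in part. The short 5′ fragment of tRNA-Leu(AAG) had 1994, 177 and 1635 normalised reads in fibroblasts, against 0, 0 and 14.1 in oocytes (7.39 ± 1.22, adjusted p = 0.00124 by limma). An entry shared by tRNA-Arg(TCT) and tRNA-Glu(TTC) had 22563, 175 and 14719 in fibroblasts, against 30.2, 58.8 and 120 in oocytes (5.90 ± 1.96, adjusted p = 0.0277), and fibroblast replicate 3 was far below the other fibroblast libraries. An entry of tRNA-Glu(TTC) alone had 1838, 55.3 and 837 in fibroblasts, against 0, 0 and 21.1 in oocytes (6.35 ± 1.55, adjusted p = 0.00777). Among 5p-tRF entries at the filter in both groups, 2 of 2 from leucine, 2 of 3 from arginine, 3 of 3 from alanine and 3 of 5 from glycine tRNAs were higher and 0 lower. Over all 59 short 5′ fragments at the filter in both groups, 17 were higher in fibroblasts and 9 lower, beside 41 higher and 42 lower of all 231 such tRNA-derived entries. Counting every one of the 451 tRNA-derived entries tested, 17.1% were higher and 50.1% lower (67.2% in either direction), but 36 of the higher and 184 of the lower calls had reached the filter in a single group.

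The short 5′ fragments of aspartate tRNAs went the other way. All 5 aspartate 5p-tRF entries tested were lower in fibroblasts, as they were within the class. Over all listed reads 2 of the 5 were lower, and with centred medians none was called. They held 0.136%, 0.0293% and 0.0825% of the short 5′ fragment signal in fibroblasts, against 23.0%, 19.4% and 13.8% in oocytes. Over all 18 aspartate entries tested, of every fragment type, 3 were higher and 6 lower, with a median change of 0.57. The aspartate share of tRNA-derived signal overlapped, at 1.39%, 4.61% and 2.30% in fibroblasts and 6.04%, 6.38% and 2.87% in oocytes.

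The short and long 5′ fragments of the same glycine tRNAs behaved differently. The short fragment shared by tRNA-Gly(CCC) and tRNA-Gly(GCC) had 47950, 7511 and 8182 normalised reads in fibroblasts, against 539, 544 and 612 in oocytes (4.66 ± 1.77, adjusted p = 0.045 by limma). The 5′ tiRNA entry of the same tRNA genes had 8589, 1979 and 1537 in fibroblasts and 2210, 1838 and 10755 in oocytes, and the groups overlapped (-0.25 ± 2.00, adjusted p = 0.914). The ratio of the short to the long form was 5.58, 3.80 and 5.32 in fibroblasts and 0.244, 0.296 and 0.0569 in oocytes (exact permutation p = 0.1, adjusted p = 0.125 over 5 ratios). A second glycine 5′ tiRNA, of tRNA-Gly(GCC), had 4136, 442 and 963 in fibroblasts, against 1228, 1671 and 27308 in oocytes. Oocyte replicate 4 alone was high, and the entry was not called (-1.66 ± 1.93, adjusted p = 0.445).

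The tRNA-derived entries lowest in fibroblasts had no fibroblast read or almost none. A fragment of tRNA-Gly(TCC) outside the named types had 0 in all fibroblast libraries and 3669, 4621 and 2619 normalised reads in oocytes, a change of -10.42 ± 0.29. Oocytes were at least 3917-fold higher than 3 reads per fibroblast library. The trailer numbered 2868 had 0, 0.543 and 0 in fibroblasts, against 2562, 4337 and 3098 in oocytes (-10.08 ± 0.34). The leader numbered 700 had none in fibroblasts and 1616, 2421 and 1473 in oocytes (-9.44 ± 0.26). The trailers numbered 649 and 2697, and a trailer entry shared by 3 precursors, had no fibroblast read either. All these entries had reached the filter only in oocytes. Cysteine tRNAs held 0.231%, 0.277% and 0.165% of tRNA-derived signal in fibroblasts and 3.02%, 3.65% and 1.98% in oocytes. A group of tRNA genes given only by Ensembl ID, with no amino acid in the table, held 0.160%, 1.18% and 1.18% in fibroblasts and 25.1%, 13.1% and 14.7% in oocytes. A 5′ tiRNA of this group had 0, 14.7 and 10.95 normalised reads in fibroblasts, against 3428, 333 and 7964 in oocytes (-7.83 ± 1.38, adjusted p = 0.00171).

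Among the miRNAs, 37 of 258 tested entries were higher in fibroblasts (14.3%) and 57 lower (22.1%). Several entries can be forms of the same miRNA, since the table keeps "miR-145" and "miR-145-5p" apart. In the 225 entries at the filter in both groups, 25 were higher and 36 lower. The 37 higher calls kept their call over all listed reads, with centred medians and with quantile normalisation, and 27 kept it when miRNAs were scaled to their own total. The 57 lower calls held for 55 within the class and for 44 over all listed reads, but for 5 with centred medians and 6 with quantile normalisation. Those 5 were miR-205-5p, miR-138-2-5p, miR-138-1-5p, miR-138 and miR-10b-5p. Of these, miR-205-5p and miR-138-1-5p had reached the filter only in oocytes. Without fibroblast replicate 3, 33 of the higher and 56 of the lower calls remained, and the number of lower calls was 87.

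**Figure D4:**
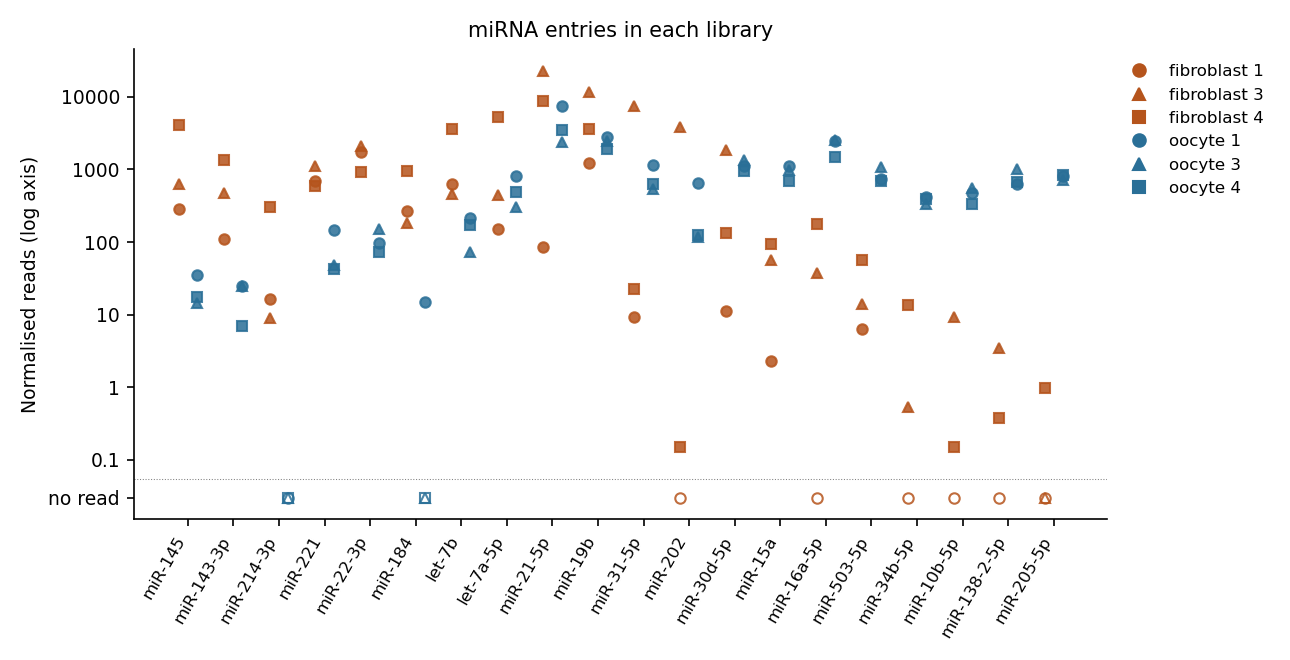
Normalised reads (y axis, log scale) of 20 miRNA entries in each library, fibroblasts left and oocytes right of each tick. Open symbols below the dotted line had no read. miR-145, miR-22-3p and miR-221 are above all oocyte libraries in every fibroblast library, and miR-205-5p and miR-138-2-5p are near or at no read in fibroblasts. Among the fibroblast libraries miR-202 and miR-31-5p are high in replicate 3 alone, and every oocyte library holds both.

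Of the 8 most abundant miRNA entries in each group 2 were common to both. miR-21-5p, a miRNA induced by growth signals in many cell types, ranked first in both groups by mean share, at 0.739%, 22.1% and 11.6% of miRNA signal in fibroblasts and 13.5%, 6.12% and 10.9% in oocytes. Its levels were 86.2, 22917 and 8633 normalised reads in fibroblasts, against 7510, 2411 and 3526 in oocytes, and it was not called (-0.61 ± 2.72, adjusted p = 0.842 by limma). miR-19b of the miR-17-92 cluster ranked second in both, with 1210, 11762 and 3642 in fibroblasts and 2788, 2494 and 1916 in oocytes (0.65 ± 1.84, adjusted p = 0.753). Below these the ranks parted. miR-22-3p ranked 3 in fibroblasts and 75 in oocytes, miR-145 ranked 6 in fibroblasts and 158 in oocytes, and miR-221 ranked 8 in fibroblasts and 95 in oocytes. miR-16a-5p ranked 113 in fibroblasts and 3 in oocytes, and miR-15a ranked 131 in fibroblasts and 7 in oocytes.

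The list of fibroblast and mesenchymal miRNAs had 15 of 37 tested entries higher in fibroblasts and 4 lower, of which 3 of the higher had reached the filter only in fibroblasts. Its median change was 2.19, against -3.78 for all entries and -0.52 for all miRNAs. Of all miRNA entries tested 14.3% were higher and 22.1% lower, and the counts of this and the later lists stand beside these shares. miR-145 and miR-143, which are made from a common transcript and are known from smooth muscle and stromal cells, both rose. miR-145 had 289, 639 and 4059 normalised reads in fibroblasts, against 35.2, 14.7 and 17.6 in oocytes (5.14 ± 1.00, adjusted p = 0.00273 by limma). miR-143-3p had 110, 474 and 1348 in fibroblasts, against 25.2, 24.5 and 7.03 in oocytes (4.27 ± 0.96, adjusted p = 0.00528). Neither overlapped between the groups, and fibroblast replicate 4 was the highest for both.

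miR-199a and miR-214, which share a transcript and are known from mesenchyme, were also higher in fibroblasts. The entry of miR-199a-5p had 111, 48.3 and 286 in fibroblasts and 20.1, 0 and 0 in oocytes (4.47 ± 1.09, adjusted p = 0.00774 by limma). miR-214-3p had 16.3, 8.95 and 306 in fibroblasts and no read in oocytes (4.12 ± 1.18), at least 8.21-fold higher than 3 reads per oocyte library. Fibroblast replicate 4 carried most of it. miR-100 had 27.4, 6.24 and 75.0 in fibroblasts and no read in oocytes (3.56 ± 0.71). The entries of miR-214-3p and miR-100 had reached the filter only in fibroblasts.

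miR-22-3p, known to restrain growth and to rise in ageing fibroblasts, had 1717, 2100.5 and 918 normalised reads in fibroblasts, against 95.6, 151.9 and 73.8 in oocytes. Its mean was 14.7-fold higher, with a change of 3.80 ± 0.58 (adjusted p = 0.000808 by limma). miR-221, which represses cell cycle inhibitors, had 697, 1098 and 583 in fibroblasts, against 146, 49.0 and 42.2 in oocytes (3.402 ± 0.59, adjusted p = 0.00153). Its neighbour in the genome, miR-222, had its -3p entry at 1.75, 319 and 285 in fibroblasts and 10.1, 0 and 0 in oocytes, which overlapped, and it was not called (4.14 ± 1.73, adjusted p = 0.062). miR-24-3p had 203, 244 and 900 in fibroblasts, against 30.2, 0 and 21.1 in oocytes (4.76 ± 1.14, adjusted p = 0.00733, and 0.061 when miRNAs were scaled to their own total). miR-125b had 222, 528 and 1474 in fibroblasts and 292, 88.2 and 102 in oocytes (1.97 ± 0.86, adjusted p = 0.0697). miR-222-3p and miR-125b passed over all listed reads, at adjusted p = 1.5e-05 and 0.026.

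The 4 entries of the same list that fell were 3 forms of miR-10b and miR-152-3p. miR-10b lies in the HOXD cluster and is known from trunk and limb mesenchyme. miR-10b-5p had 0, 9.22 and 0.149 normalised reads in fibroblasts, against 468, 554 and 338 in oocytes (-6.52 ± 0.67, adjusted p = 0.000125 by limma), and it was lower under every scaling run. Of the fibroblast libraries only replicate 3 was at the filter for it. miR-152-3p had 0, 0.543 and 4.25 in fibroblasts, against 30.2, 9.80 and 7.03 in oocytes (-2.01 ± 0.60, adjusted p = 0.0186), and was called higher with centred medians (2.06, adjusted p = 0.027).

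The largest rise of all miRNAs was in miR-184, known from epithelia of the eye and skin. It had 271, 181 and 954 normalised reads in fibroblasts and 15.1, 0 and 0 in oocytes (6.17 ± 1.02, adjusted p = 0.00122 by limma). Its -3p entry had 14.6, 15.2 and 116 in fibroblasts and none in oocytes (3.81 ± 0.74), and had reached the filter only in fibroblasts. miR-185, known to target regulators of growth and of miRNA processing, had 309, 340 and 325 in fibroblasts, against 45.3, 0 and 7.03 in oocytes. It changed by 4.85 ± 1.04 (adjusted p = 0.00434, and 0.051 within the class). Its 3 fibroblast values lay close together. miR-193b-3p had 100, 95.0 and 239 in fibroblasts and 35.2, 0 and 0 in oocytes (4.41 ± 1.16, adjusted p = 0.0107). miR-181a had 22.7, 198 and 35.2 in fibroblasts and 0, 0 and 7.03 in oocytes (3.84 ± 0.96, adjusted p = 0.00858).

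The epithelial list had 6 of 7 tested entries lower in fibroblasts and 0 higher, beside 22.1% lower of all miRNA entries. All 6 had reached the filter only in oocytes. miR-205-5p, a marker of stratified epithelia, had 0, 0 and 0.969 normalised reads in fibroblasts, against 820, 706 and 830 in oocytes. Its change of -7.96 ± 0.30 was the largest fall among miRNAs, and it stayed below 0 under every scaling run. miR-200c had no read in fibroblasts and 90.6, 49.0 and 24.6 in oocytes, and its partner miR-141 had none in fibroblasts and 30.2, 14.7 and 21.1 in oocytes. miR-200c and miR-141 come from a common transcript and repress the ZEB factors of mesenchymal cells. They changed by -4.37 ± 0.43 and -3.34 ± 0.25, and with centred medians by -0.30 and 0.73, neither called. With centred medians 1 entry of the list was higher and 1 lower.

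The list of miR-15, miR-16, miR-424 and miR-503, a family that slows the cell cycle, had 8 of 14 tested entries lower and 0 higher. All 14 were at the filter in both groups, where 36 of all 225 miRNA entries were lower. Together the list made up 0.170%, 0.726% and 1.03% of miRNA signal in fibroblasts, against 11.7%, 17.0% and 13.9% in oocytes. miR-16a-5p had 0, 38.0 and 178 normalised reads in fibroblasts, against 2441, 2573 and 1505 in oocytes (-6.28 ± 1.54, adjusted p = 0.00801 by limma). miR-15a had 2.33, 56.7 and 93.8 in fibroblasts, against 1112, 975 and 700 in oocytes (-4.75 ± 1.06, adjusted p = 0.00509). miR-503-5p had 6.41, 14.1 and 56.6 in fibroblasts, against 735, 1088 and 703 in oocytes (-5.15 ± 0.68, adjusted p = 0.000403). No library of either group overlapped for these 3. The count of lower entries was 8 within the class, 5 over all listed reads and 0 with centred medians, where none was higher.

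The miR-34 family was split between its members. miR-34a, a target of p53, had 115, 511 and 1225 normalised reads in fibroblasts, against 146, 29.4 and 35.2 in oocytes (2.84 ± 1.02, adjusted p = 0.0373 by limma, and 0.078 without fibroblast replicate 3). The groups overlapped by fibroblast replicate 1. miR-34b-5p, from another gene that it shares with miR-34c and that is known from germ cells and ciliated cells, had 0, 0.543 and 13.7 in fibroblasts and 423, 333 and 390 in oocytes (-6.06 ± 0.74, adjusted p = 0.000275). miR-34c-5p had no read in fibroblasts and 15.1, 39.2 and 14.1 in oocytes (-3.31 ± 0.36). The 5 lower entries of the list were miR-34b-5p, miR-34b-3p, miR-34b, miR-34c-5p and miR-34c, and all of these except miR-34b-5p had reached the filter only in oocytes. Within the class and over all listed reads 2 entries were higher and 5 lower, and with centred medians 5 were higher and 0 lower.

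miR-138, known from brain and from repression of the telomerase gene, was also near or at no read in fibroblasts. miR-138-2-5p had 0, 3.53 and 0.373 normalised reads in fibroblasts, against 629, 1005 and 679 in oocytes (-7.49 ± 0.46, adjusted p = 1.27e-05 by limma). Of the fibroblast libraries only replicate 3 was at the filter for it. miR-138-1-5p had 0, 0.814 and 0 in fibroblasts, against 372, 333 and 250 in oocytes (-6.68 ± 0.31), having reached the filter only in oocytes. miR-138 sits in the list of muscle and neural miRNAs, of which 8 of 12 tested entries were lower, beside 22.1% of all miRNA entries. These 8 were 5 forms of miR-138 and 3 of miR-9. The entry higher was miR-133a-3p, at 2.91, 4.88 and 12.2 in fibroblasts and no read in oocytes (2.01 ± 0.33), and it had reached the filter only in fibroblasts. Its levels were near or below 3 reads per oocyte library (15.1, 14.7 and 10.5 normalised reads), so its absence from oocytes is not resolved. With centred medians 3 entries of this list were higher and 3 lower.

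The let-7 family, which builds up as cells differentiate, showed little on the deposited scale. Of 16 tested entries, all at the filter in both groups, let-7b was higher and 0 were lower. let-7b had 638, 459 and 3651 normalised reads in fibroblasts, against 211, 73.5 and 172 in oocytes (2.83 ± 0.95, adjusted p = 0.0287 by limma, and 0.07 within the class). let-7a-5p had 151, 439 and 5189 in fibroblasts and 805, 304 and 489 in oocytes (0.52 ± 1.39, adjusted p = 0.742). Fibroblast replicate 4 was above all oocyte libraries and replicate 1 below them. As a family let-7 made up 8.56%, 4.86% and 17.2% of miRNA signal in fibroblasts, against 6.20%, 3.90% and 5.96% in oocytes. Over all listed reads 3 entries were higher, and with centred medians 11 were higher.

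The remaining lists held few calls. In the miR-17-92 list, miR-17-3p was higher (2.48 ± 0.55, adjusted p = 0.00514 by limma, and 0.121 within the class) and miR-20a-5p lower (-3.36 ± 1.25, adjusted p = 0.0421) among 17 tested. In the list of miR-30, miR-148 and their relatives, miR-148a-3p and miR-152-3p were lower among 10 tested. miR-148a-3p had 0, 101 and 76.4 normalised reads in fibroblasts, against 498, 622 and 436 in oocytes (-4.20 ± 1.45, adjusted p = 0.0323, and 0.064 within the class). In the blood and serum list miR-122-5p, miR-122 and miR-150-5p were lower among 5 tested, and miR-150-5p had reached the filter only in oocytes. miR-122-5p, the liver miRNA that circulates in serum, had 0, 4.34 and 1.71 in fibroblasts, against 176, 191 and 134 in oocytes (-5.08 ± 0.47, adjusted p = 7.66e-05). Of the imprinted DLK1-DIO3 cluster 3 entries were tested, and miR-376b-3p had 14.6, 5.43 and 23.7 in fibroblasts and none in oocytes (2.77 ± 0.39). It was called after reaching the filter only in fibroblasts. It was at least 1.08-fold higher than 3 reads per oocyte library, so its absence from oocytes is barely resolved. Of the miR-371 and miR-302 list only miR-302a/d-3p had an entry, below the filter, at 0, 8.68 and 66.6 in fibroblasts and 0 in oocytes.

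Fibroblast replicate 3 decided the calls of another set of miRNAs. miR-202, which is known from the gonads, had 0, 3848 and 0.149 normalised reads in fibroblasts, against 654, 118 and 123 in oocytes. Its -5p entry had 0, 1668 and 0 in fibroblasts, against 891, 230 and 415 in oocytes. With all libraries they changed by -2.77 ± 2.94 and -4.32 ± 2.62 (adjusted p = 0.405 and 0.167 by limma), and without fibroblast replicate 3 by -6.23 and -7.43 (adjusted p = 0.0008 and 0.00014). miR-31-5p, known from skin keratinocytes and fibroblasts, had 9.32, 7558 and 22.7 in fibroblasts, against 1163, 544 and 633 in oocytes. It changed by -2.38 ± 2.42 (adjusted p = 0.387), and by -5.24 (adjusted p = 0.00026) without replicate 3. miR-155-5p, an immune cell miRNA, had 0, 1070 and 27.9 in fibroblasts and 569, 172 and 229 in oocytes. miR-335-5p had 0, 397 and 4.69 in fibroblasts and 327, 377 and 236 in oocytes. On the deposited scale neither miR-155-5p nor miR-335-5p was called with all libraries (adjusted p = 0.279 and 0.088 by limma), and both were called lower without replicate 3 (-4.96 and -6.01, adjusted p = 0.0088 and 0.00029). Over all listed reads, with every library, miR-335-5p and miR-202-5p were called lower (adjusted p = 0.0414 and 0.00482). In the list of cumulus and granulosa cell miRNAs 2 of 10 tested entries, miR-132 and miR-503-5p, were lower with all libraries and miR-214-3p, which had reached the filter only in fibroblasts, was higher. Without replicate 3, 6 were lower and 1 higher.

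**Figure D5:**
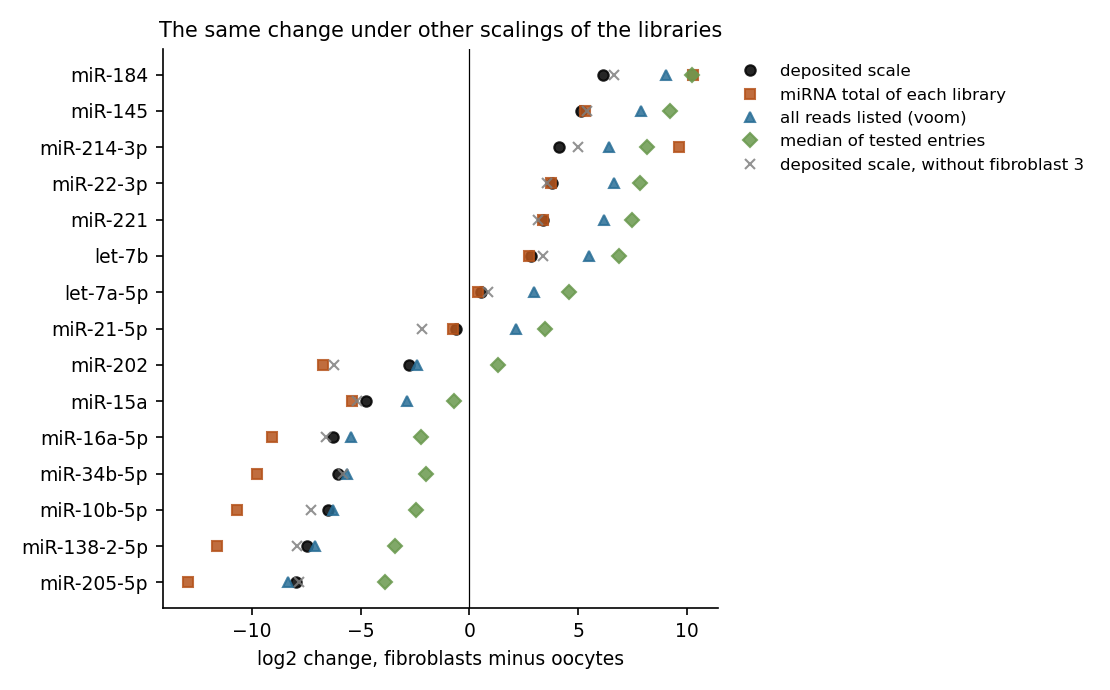
Log2 change (x axis, fibroblasts minus oocytes) of 15 miRNA entries under the deposited scale, 3 other scalings and the deposited scale without fibroblast replicate 3. Under all of them let-7a-5p and the entries above it stay right of 0, and miR-15a and the entries below it stay left of 0. Not every one of these changes was called. miR-21-5p and miR-202 cross 0.

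Among the structural RNAs, 7SK, the nuclear RNA that holds back the elongation factor P-TEFb, was near or at no read in fibroblasts. Its entries summed to 0, 3.53 and 0.447 normalised reads in fibroblasts, against 3065, 3411 and 2549 in oocytes. All 8 tested entries were lower, and all 8 had reached the filter only in oocytes. With centred medians 6 of the 8 stayed lower. The 2 with the largest change had no fibroblast read and had changes of -8.52 and -8.25. Spliceosomal U6 RNA fragments summed to 0, 11.7 and 8.05 in fibroblasts, against 317, 848 and 306 in oocytes, and all 6 tested entries were lower. U2 fragments summed to 47.2, 169 and 176 in fibroblasts and 1133, 2264 and 767 in oocytes, with 7 of 11 tested entries lower. U5 fragments summed to 1.16, 244 and 53.0 in fibroblasts and 896, 1127 and 742 in oocytes, with 6 of 10 lower. For U1, 2 of 7 tested entries were lower. Over all tested entries of every class 84.9% were lower, which is above the shares for U1, U2 and U5. Of the 24 snRNA entries called lower in all, 18 had reached the filter only in oocytes, and of the 22 at the filter in both groups 6 were lower. With centred medians 7 of the 24 stayed lower. As shares of all listed reads the 7SK and U6 sums did not overlap between the groups, while the U1, U2 and U5 sums did. The share of the snRNA class as a whole overlapped, averaging 0.176% in fibroblasts and 0.180% in oocytes.

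Fragments of 5.8S ribosomal RNA summed to 33.2, 1502 and 83.8 normalised reads in fibroblasts and 1767, 3690 and 2549 in oocytes, without overlap, and 2 of 2 tested entries were lower. As shares of all listed reads they overlapped. The small sums of U4 and U6atac did not overlap either, at no more than 9.22 and 0.373 in a fibroblast library and at least 30.2 and 10.1 in an oocyte library. As shares of all listed reads U4 overlapped and U6atac did not. The sums of Y RNA, 5S ribosomal RNA and U3 fragments overlapped between the cell types. As shares of all listed reads Y RNA overlapped too, but 5S and U3 were higher in every fibroblast library. The 5S share was 6.17%, 0.893% and 2.20% in fibroblasts and 0.604%, 0.622% and 0.269% in oocytes. The U3 share was 0.0181%, 0.0864% and 0.0496% in fibroblasts and 0.00220%, 0.00375% and 0.00461% in oocytes. Y RNA fragments, from the small RNAs bound by the Ro protein, summed to 715, 12772 and 2475 normalised reads in fibroblasts and 2023, 7150 and 9718 in oocytes, and 0 of 7 tested entries were called. 5S ribosomal RNA summed to 25036, 2587 and 4715 in fibroblasts and 12442, 15446 and 4725 in oocytes. Of its 17 tested entries 5 were lower and 1 higher, which had 11.1, 1.36 and 2.68 normalised reads in fibroblasts and none in oocytes and had reached the filter only in fibroblasts. The levels of that higher entry were near or below 3 reads per oocyte library (15.1, 14.7 and 10.5 normalised reads), so its absence from oocytes is not resolved. U3, a nucleolar RNA of ribosome assembly, summed to 73.4, 250 and 107 in fibroblasts and 45.3, 93.1 and 80.9 in oocytes, with 0 of 3 tested entries called. Of 113 tested fragments of protein-coding transcripts 103 were lower and 2 higher, beside 84.9% lower and 3.55% higher of all tested entries. Among these 113, 101 had reached the filter only in oocytes. The largest, a predicted transcript, had no read in fibroblasts and 2537, 4062 and 3055 normalised reads in oocytes (-10.26 ± 0.27).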

How the data were processed

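Small RNA libraries of 3 fibroblast and 3 oocyte samples were analysed. In the authors' deposited table, values are log2 after variance stabilisation. Trim Galore, DESeq2 and the builds bosTau8 and UMD3.1 are named in the submitters' processing notes. The sources used here name neither the annotation tool nor any version. The lowest value, 1.3675, stands for no read. Inverting the transformation gave whole reads for 100% of 188126 values (tolerance 0.01 reads), with the smallest value in each library taken as 2 reads. The scale of the reads rests on this.

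Entries exceeding the lowest value by 1 log2 unit or more in 3 of the 6 libraries were tested with limma 3.58.1 in R 4.3.3 (trend, no covariate, 1.86 prior and 4 residual degrees of freedom, Benjamini-Hochberg adjustment at 0.05). Unadjusted p was under 0.05 for 3576 entries. Fits were tested on simulated data. Shares and ratios used two-sided exact permutation tests over the 20 splits of 3 against 3 (scipy 1.17.1). Classes came from the annotations. Counts "within the class" rest on log2(CPM of the class + 1), and those "over all listed reads" on voom of the recovered reads. Levels are normalised reads, not log2 values, and the transformation understates changes of low entries.

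Named entries were those called with the largest change in each direction (12 miRNAs, 6 tRNA-derived, 5 piRNAs and 2 of other classes), up to 4 called members of each list, the most abundant of each group and a fixed set. The text gives some of them. miR-202-5p, miR-155-5p, miR-335-5p, miR-222-3p, miR-34a, miR-133a-3p, miR-141, miR-424-5p, miR-10b-3p and the ratios were chosen after their values were seen. The comparison and the 12 lists were chosen with earlier results of these data known. Several miRNAs are in 2 lists. miRNAs with a mismatch and those of other species were kept out of the lists. Fragment length and first base could not be analysed because the table holds no sequences.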

Additional observations from a re-analysis of the deposited data

How the results depend on the processing

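The counts of calls in each direction, and the sign and size of many changes, rest on the scaling of the libraries. Shares and ratios within a library need no such scaling. Called entries numbered 3564 on the deposited scale, 2324 with centred medians and 2145 with quantile normalisation. Higher entries numbered 1205 with centred medians, 973 with quantile normalisation and 298 by voom, and lower entries 1119 with centred medians and 1172 with quantile normalisation. miRNAs were higher in 145, 155 and 82 cases and tRNA-derived entries in 241, 236 and 130 under the same 3 settings, and piRNAs in 647, 422 and 8. Of these piRNA entries, 636 with centred medians and 410 with quantile normalisation had reached the filter only in oocytes. Their higher calls therefore do not show more piRNA reads in fibroblasts. miRNAs were lower in 5 and 6 cases, tRNA-derived entries in 74 and 82, and piRNAs in 940 and 1000, with centred medians and quantile normalisation. Scaled within classes 12 piRNA entries were higher. Scaled within classes and without fibroblast replicate 3, a setting chosen after seeing the data, 15 piRNA entries were higher and 88 miRNA entries lower. Library weights gave fibroblasts 270.4 to 303.9 and oocytes 0.002 to 0.007. For 3202 of the 4028 tested entries every fibroblast library had no read and so no spread. These weights therefore do not rank the libraries by quality. The weighted fit left 1 higher entry in all, a tRNA-derived one, so 0 miRNA and 0 piRNA entries were higher, and 13 miRNA entries were lower. Leaving out each library in turn gave 43 to 87 lower miRNA entries and 0 to 2 higher piRNA entries. Counted over entries found, the piRNA share differed by -74.1 percentage points and the tRNA-derived share by 27.0. When deposited values less their minimum were taken out of the log2 scale and summed, the piRNA difference was -81.5. The causes were not tested.

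The following changes had the other sign with centred medians and quantile normalisation, in that order: miR-21-5p 3.46 and 2.31, miR-31-5p 1.69 and 0.98, miR-202 1.30 and 1.54, miR-155-5p 1.40 and 1.22, miR-10b-3p 1.36 and 0.87, miR-141 0.73 and 0.21, miR-34c-5p 0.76 and 0.25, miR-34b-3p 0.55 and 1.06, miR-34b 1.02 and 0.35, miR-34c 1.41 and 0.92, miR-152-3p 2.06 and 1.64, miR-20a-5p 0.71 and 0.11, miR-132 1.62 and 1.45, miR-424-5p 1.31 and 1.19, miR-122 1.08 and 1.08, miR-30d-5p 1.24 and 0.18. The same held for the glycine 5′ tiRNA of tRNA-Gly(GCC) at 2.41 and 0.26, that of tRNA-Gly(CCC) at 3.82 and 1.32, and snoRNA entries of families RF00413 at 0.40 and 0.77 and RF00476 at 1.41 and 2.23. miR-335-5p stood at 0.18 with centred medians and miR-10b at 0.007 with quantile normalisation. No fibroblast library had a read for 3202 of the 4028 tested entries, so each fibroblast median is the value of no read. Centring sets that value equal to the oocyte medians. For an entry without fibroblast reads, such as miR-141, miR-34c-5p and miR-34b, the sign then tells only how its oocyte level stands to those medians. It does not show that the entry was higher in fibroblasts. By voom miR-21-5p stood at 2.13, miR-31-5p at 0.13 and the glycine 5′ tiRNAs at 1.23 (GCC) and 2.59 (CCC). With library weights the chr22 piRNA entry stood at -0.53 and the tRNA-Gly(CCC) 5′ tiRNA at 0.037. Over the libraries left out in turn, changes ran from -2.17 to 1.81 for miR-21-5p, -0.17 to 1.46 for miR-19b, -0.92 to 1.61 for let-7a-5p, -2.26 to 2.55 for the chr22 piRNA entry and -1.01 to 0.56 for the tRNA-Gly(CCC) 5′ tiRNA. The trailer share differed by -27.4 to 2.21 percentage points and the glycine share by -11.7 to 2.48.

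Deviations from the group means correlated at -0.146, -0.056 and -0.042 between fibroblast and oocyte libraries of the same number. The fibroblast deviation is 0 for the 3202 tested entries without a fibroblast read, so these correlations could say little about pairing. With the replicate number as a block 155 entries were higher and 3442 lower. A read counted for more in oocytes than in fibroblasts, so low oocyte levels are the less certain ones.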
